A study of Mus musculus with 30 samples.

Results

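Thymic epithelium was compared with thymic mesenchyme in the newborn mouse. The epithelial side was made of cortical thymic epithelial cells (cTEC) and medullary thymic epithelial cells (mTEC), and the mesenchymal side of cells positive for CD140a (the PDGF receptor alpha) and cells positive for CD146 (the adhesion molecule Mcam). These 4 populations gave 24 of the 30 RNA sequencing libraries of the study, 6 for each population, and the endothelial libraries were left out. All mice were of the strain B6.SJL and the libraries are labelled as mixed in gender. Mice were injected on postnatal day 1 and their thymi were taken on postnatal day 3. In every population 2 libraries came from mice given an hFC control antibody and 4 from mice given aflibercept, also called VEGF-Trap (Trap below), a decoy receptor built from parts of VEGF receptors that binds VEGF-A. The study asked what VEGF does in the neonatal thymic microenvironment. All 4 populations were sorted as cells lacking CD3, CD4, CD8, CD45 and Ter119, after magnetic depletion of CD45-bearing cells. The epithelial gates required EpCAM, with high Ly51 for cTEC and low or no Ly51 for mTEC, and the mesenchymal gates required the lack of EpCAM and of CD31.

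The members were chosen by their labels: the 12 cTEC and mTEC libraries against the 12 CD140a and CD146 libraries. Levels are the authors' FPKM, a count of sequenced fragments divided by gene length and by the size of the library. A gene was tested where it reached 1 FPKM in at least 2 of the 24 libraries, which held for 16100 of 18847 genes. A difference below is the mean of the cTEC and mTEC means of log2(FPKM + 1) minus the mean of the CD140a and CD146 means, given with its standard error, so that a positive value is higher in epithelium. An FPKM value with ± is the mean and SD of the 6 libraries of a population. The scale understates differences of genes at low levels. Tests are limma's moderated test, two-sided, with Benjamini-Hochberg adjustment over all 16100 genes, and a gene was called at an adjusted p under 0.05. Each compartment is represented by only 2 populations, so the libraries replicate the populations and not the compartments. The number of animals behind a library is not stated, so the p-values speak to the spread between libraries of a population, which may be technical. In sorted bulk samples, fewer cells that express a gene and less RNA per cell cannot be told apart.

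The thymus is built from epithelium of the pharyngeal pouch endoderm and from mesenchyme that derives largely from the neural crest. Epithelial cells adhere through E-cadherin, desmosomes and tight junctions, hold their shape with keratin filaments, and rest on a basement membrane. Mesenchymal cells, fibroblasts and the mural cells of vessels among them, secrete interstitial collagen and supply growth factors to the epithelium. Thymic epithelium in turn presents antigens on MHC molecules and secretes the chemokines and cytokines that attract and sustain developing T cells.

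The 24 libraries had FPKM sums of 184608 to 241993 and 11181 to 13661 genes at 1 FPKM or more, with mTEC at the upper end of both (213740 to 241993, and 12815 to 13661 genes). The low FPKM values fall on steps that match whole fragments, from which 14200000 to 21000000 fragments per library were estimated. At a median exon length of 4.09 kb, 1 FPKM then stands for about 58.0 to 85.8 fragments, an estimate that covers counting only. The gates were checked on the genes of the sorted proteins. Ptprc (CD45) lay at 3.07 to 7.82 FPKM in cTEC and at or under 1.14 FPKM in the 18 other libraries, and Pecam1 (CD31) lay between 0.76 and 3.6 FPKM in all 24 libraries. Thymocyte genes summed to 68.6 to 176 FPKM in cTEC, against 7.47 to 16.3 in mTEC, 3.62 to 13.1 in CD140a and 1.12 to 7.35 in CD146 libraries, and 12 of the 13 had a cTEC mean of at least 1 FPKM. The macrophage and dendritic list of 10 genes summed to 23.5 to 81.2 FPKM in mTEC and to between 9.70 and 49.0 FPKM elsewhere, led by Cd68 in cTEC, CD140a and CD146 (means of 8.98, 21.5 and 28.5 FPKM), where C1qa, C1qb and C1qc were each under 0.1 FPKM on average. Parathyroid genes, led by Pth, summed to 467 to 2565 FPKM in mTEC and to at most 38.4 FPKM elsewhere. The endothelial list of 10 genes reached at most 37.5 FPKM in a CD140a library, led there by Tek (25.7 ± 3.78 FPKM), and 37.65 FPKM in a CD146 library, led there by Esam (a mean of 18.1 FPKM).

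The labels held on the summed pan-epithelial and pan-mesenchymal markers. The summed level of 10 pan-epithelial genes spanned 1647 to 1805 FPKM across cTEC and 1379 to 1725 FPKM across mTEC libraries, against 2.13 to 5.01 in CD140a and 3.02 to 8.63 in CD146. The summed level of 10 pan-mesenchymal genes was 7011 to 9002 FPKM in CD140a and 2709 to 3379.6 FPKM in CD146, against 75.04 to 125 in cTEC and 107 to 139 in mTEC. No library of one compartment came within the range of the other for either sum. Lists of single mesenchymal populations were less clean. The 10 pericyte and smooth muscle genes summed to 506 to 760 FPKM in mTEC, led by Rgs5 (a mean of 539 FPKM), against 134 to 243 in CD140a. The 10 fibroblast genes summed to 137 to 301 FPKM in mTEC, led by Ly6a (a mean of 186 FPKM), against 41.8 to 96.1 in CD146. In cTEC the sums were 92.4 to 143 and 30.3 to 40.8 FPKM. The source of these levels was not tested.

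The marker pair Epcam and Col3a1 split the libraries completely. Epcam (ENSMUSG00000045394, chromosome 17, 87635979 to 87651129, plus strand, GRCm38), which encodes the sorted protein EpCAM and is therefore no independent finding, lay at 274 to 588 FPKM (median 352) in the 12 epithelial libraries and at 0 to 2.61 FPKM (median 0.085) in the 12 mesenchymal libraries. Col3a1 (ENSMUSG00000026043, chromosome 1, 45311538 to 45349706, plus strand), the chain of type III collagen, lay at 0.18 to 2.6 FPKM (median 0.97) in epithelium and at 184 to 2259.9 FPKM (median 897) in mesenchyme. No library of one side overlapped the other for either gene. The differences were 8.11 ± 0.16 and -8.25 ± 0.10 on the log2 scale (adjusted p = 1.09e-24 and 3.99e-29). Within mesenchyme Col3a1 was far higher in CD140a (1584 to 2259.9 FPKM) than in CD146 libraries (184 to 209 FPKM). The other sorting genes followed single populations: Pdgfra (CD140a) lay at 103 to 131 FPKM in CD140a and at most 3.33 FPKM in any other library, Mcam (CD146) at 105 to 149.8 FPKM in CD146 and at most 5.8 FPKM elsewhere, and Enpep (Ly51) at 20.97 to 25.4 FPKM in cTEC but at 6.4 to 9.34 FPKM in CD146 against 1.21 to 3.95 FPKM in mTEC, so that its call towards epithelium (0.48 ± 0.14) missed the threshold after rescaling to TPM and after quantile normalization.

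Compartment was the largest axis of expression. The first principal component of the 16100 genes held 52.2% of the variance. On it epithelial libraries scored 45.5 to 102 and mesenchymal libraries -82.3 to -62.8. It also set cTEC (45.5 to 50.9) apart from mTEC (91.3 to 102), so its share is not that of compartment alone. The contrast of the sides took 60.77% of the sum of squares between the 4 populations. The shares were 22.8% for cTEC against mTEC and 16.43% for CD140a against CD146. The compartment contrast was the largest of the 3 in 7765 genes (48.23%). Across genes, log2 values of libraries correlated at 0.7846 to 0.8647 between the 2 populations of a compartment and at 0.5915 to 0.7685 between compartments. Of the genes tested, 6867 (42.7%) were higher in epithelium and 3818 (23.7%) higher in mesenchyme, 10685 in all (66.4%), and the median difference of all genes was 0.17. These shares are the background for the counts of the gene lists below. The direction split depends on scaling: after quantile normalization, which moved the median difference by -0.19, 5094 genes were higher in epithelium and 5311 higher in mesenchyme (48.96% against 64.27% of calls higher in epithelium), and after rescaling each library to TPM (the same values scaled to a fixed sum), which moved it by -0.11, the counts were 5690 and 4748. The added 1 was kept after the TPM rescaling, which raised all values, so it weighs less there. That setting is thus also akin to a smaller pseudocount: the median difference of the 10 keratins tested rose from 4.61 to 6.595. After upper quartile scaling it was 4.589. Small differences are therefore given below with the scalings in view.

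A stricter class asked for complete separation: a called gene with a difference of at least 1 whose 12 libraries of one side all lay above the 12 of the other. This class held 1057 genes higher in epithelium (6.57% of those tested) and 659 higher in mesenchyme (4.09%). The 15 largest differences in each direction among separated genes at 5 FPKM or more are a short portrait of the compartments. On the epithelial side stood the MHC class II genes H2-Ab1, Cd74, H2-Aa and H2-Eb1, the keratins Krt8, Krt18, Krt5 and Krt17, the adhesion genes Epcam, Cdh1 and Dsp, the chemokine Ccl21a, the interferon-inducible Ifi202b, the cornified envelope gene Sprr1a and the MHC class I-like H2-M2. On the mesenchymal side stood the collagen genes Col3a1, Col1a2, Col1a1 and Col6a3, the matrix genes Postn, Lama2 and Sparcl1, the IGF-binding Igfbp7, the chemokine Ccl11 (eotaxin), the collagen receptor Ddr2, the surface protein Cd248 (endosialin), the potassium channel subunit Abcc9, the peptidase inhibitor Pi15, the amine oxidase Aoc3 and the carboxypeptidase Cpe. H2-Ab1, a class II beta chain, had the largest difference of these, 9.07 ± 0.20: it lay at 716 to 1922 FPKM (median 999.9) in epithelium and 0.07 to 4.08 FPKM (median 0.84) in mesenchyme. Krt17 was listed at 0 in all 12 mesenchymal libraries and lay at 68.2 to 215 FPKM (median 117) in epithelium. Ccl21a, Ifi202b and the MHC genes have near-identical relatives in the genome, so the share of reads assigned to each copy is uncertain.

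**Figure D1:**
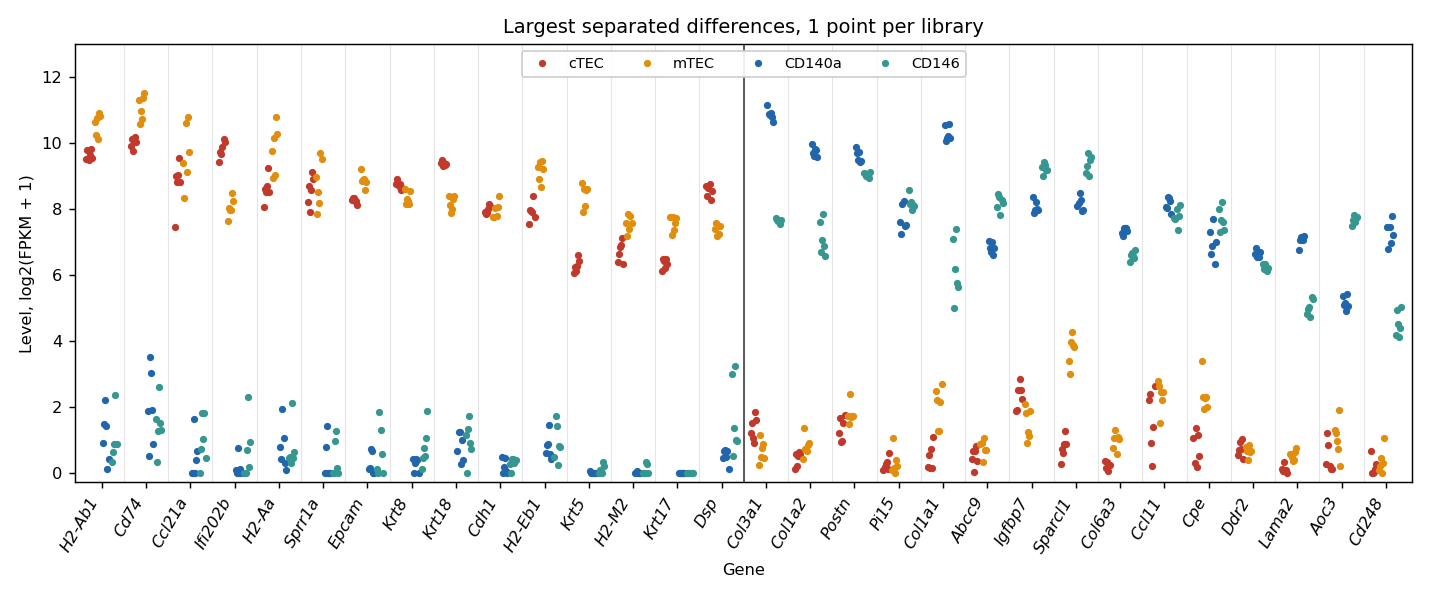
Levels, as log2(FPKM + 1), of the 15 genes with the largest separated differences in each direction (x axis, epithelial genes left of the dark line), 1 point for each of the 24 libraries, coloured by population. The 12 points of one side lie above all 12 of the other for each gene, as the choice of the genes requires; within a side the populations can differ, as for Krt5 (66.1 to 95.2 FPKM in cTEC, 237 to 441 in mTEC) and Col3a1.

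Epithelial adhesion genes were higher in epithelium throughout. Of 26 genes of adherens junctions, tight junctions and desmosomes tested, 26 were called higher in epithelium and 17 were separated, with a median difference of 2.95 against 0.17 over all genes. Cdh1, which encodes E-cadherin, lay at 216 to 334 FPKM (median 246) in epithelium and at 0 to 0.38 FPKM (median 0.215) in mesenchyme, and cTEC (250.5 ± 21.5 FPKM, SD, n = 6) and mTEC (252 ± 45.9 FPKM) were close. Its groups did not overlap, and the difference was 7.72 ± 0.08 (adjusted p = 2.56e-30). The desmosomal genes formed a block of large differences, 6.88 for Dsp (desmoplakin), 6.47 for Dsg2 (desmoglein), 5.55 for Pkp1 (plakophilin) and 5.18 for Dsc2 (desmocollin). Perp, a desmosome-associated membrane protein, differed by 6.75 ± 0.31, with 0.03 to 14.7 FPKM in CD146 libraries. The tight junction gene Cldn4 was separated (2.8 to 83.1 against 0 to 0.22 FPKM), but mTEC held far more than cTEC (49.2 ± 20.6 against 5.12 ± 2.28 FPKM).

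Polarity and apical traffic followed at smaller size: 14 of 15 genes were called higher in epithelium, beside 42.7% of all genes. Of the 15, 6 were separated and the median was 1.88. The largest differences were those of Ezr (ezrin, which ties actin to the apical membrane, 4.26), Pard6b (a subunit of the PAR polarity complex, 3.56), Lsr (a tricellular junction protein, 3.17), Mal2 (apical transport, 2.20), Ap1m2 (an epithelial clathrin adaptor, 1.98) and Epb41l5 (1.93). Rab17, an epithelial Rab GTPase, was not called (0.18 ± 0.14, adjusted p = 0.28) at levels of at most 1.68 FPKM. All 6 membrane proteases and their inhibitors were called higher in epithelium and 4 were separated, led by the inhibitors Spint1 (28.6 to 67.5 against 0 to 0.65 FPKM) and Spint2 (16.3 to 44.2 against 0.25 to 1.96 FPKM) and by their target St14, matriptase (7.7 to 28.8 against 0 to 0.64 FPKM). The remaining proteases Tmprss4, Prss8 and Tmprss2 differed by 1.82, 1.68 and 0.97.

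All 10 keratins tested were called higher in epithelium, 7 were separated, and the median difference of 4.61 was the highest of the 24 lists. Krt8 and Krt18, the partner keratins of simple epithelia, lay at 281 to 476 and 235 to 714 FPKM in epithelium and at most 2.65 and 2.28 FPKM in mesenchyme. Krt5 and Krt14, the partner keratins of basal cells, were separated as well (7.30 ± 0.09 and 5.54 ± 0.10) but were several times higher in mTEC, at 352 ± 79.2 against 77.3 ± 10.98 FPKM and 157 ± 28.7 against 13.5 ± 3.57 FPKM. Krt7 was even between the epithelial populations (13.8 ± 2.04 in cTEC, 12.5 ± 1.49 FPKM in mTEC) and under 1 FPKM in every mesenchymal library.

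Filament and contractile genes usually assigned to mesenchyme were called in both directions. Vim, which encodes vimentin, was separated (-3.89 ± 0.11), at 6.74 to 71.5 FPKM (median 32.7) in epithelium and 355 to 529 FPKM (median 442) in mesenchyme. Of the 16 genes of the list, 8 were called higher in mesenchyme, 6 higher in epithelium and 2 not called, with a median of -0.25, beside 23.7% and 42.7% of all genes in those directions. After quantile normalization 9 were called higher in mesenchyme and 3 higher in epithelium, and after rescaling to TPM 9 and 4. Several contractile genes were high in CD146 and lower in CD140a than in either epithelial population. Acta2 (smooth muscle actin) had a mean of 753 ± 276 FPKM in CD146 and 9.998 ± 8.12 FPKM in CD140a, with 37.2 ± 9.81 FPKM in cTEC and 25.4 ± 6.17 FPKM in mTEC. Myh11 (smooth muscle myosin) had 449 ± 28.8 FPKM in CD146 and 0.65 ± 0.377 FPKM in CD140a, against 38.2 ± 7.99 in cTEC and 38.4 ± 8.93 FPKM in mTEC, so that its difference of 0.52 ± 0.12 is positive although CD146 cells had the highest level. Kcnj8, a potassium channel gene of pericytes, was in contrast separated towards mesenchyme (15.6 to 99.95 against 0 to 0.3 FPKM). Myl9, Des and Cald1 were called higher in mesenchyme (-3.02, -2.96 and -1.75). Palld (palladin, an actin bundler) was separated towards epithelium (19.1 to 99.3 against 7.77 to 16.7 FPKM), and Actn1 (1.39 ± 0.10), Cnn2 (0.37 ± 0.08), Tpm2 (0.37 ± 0.12) and Synm (0.32 ± 0.13) were called in the same direction without separation. Tpm2 and Synm missed the threshold after rescaling to TPM and after quantile normalization, Synm also with a pseudocount of 0.1, and Myh11 after quantile normalization. Tpm1 (-0.03 ± 0.07) and Tagln (0.02 ± 0.24) were not called (adjusted p = 0.74 and 0.95), with CD146 again above CD140a for both; Tpm1 was called higher in mesenchyme under those 2 scalings.

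**Figure D2:**
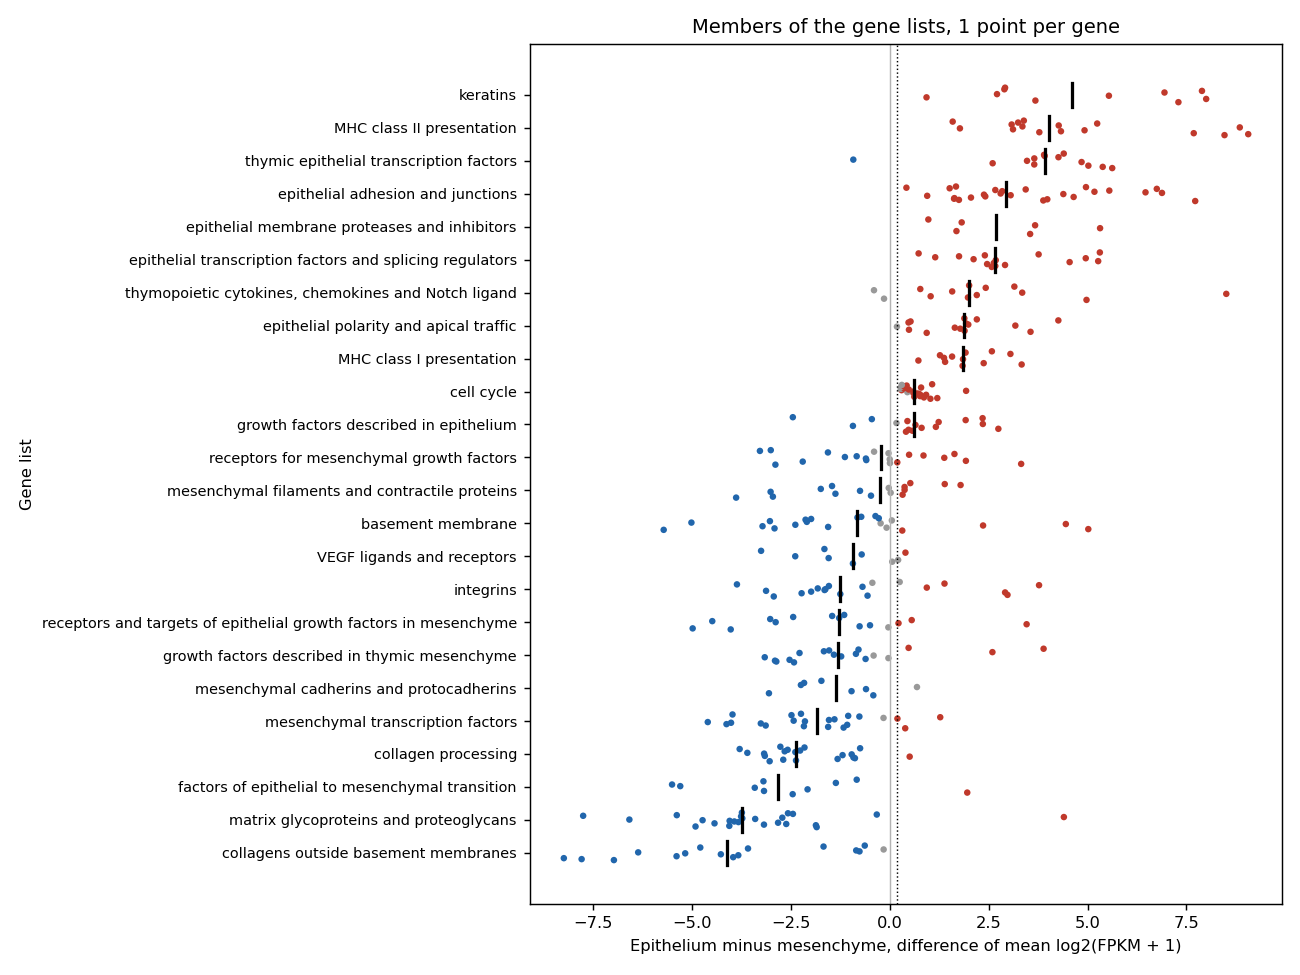
Difference of each tested member (x axis, epithelium minus mesenchyme in mean log2(FPKM + 1)) for the 24 gene lists (y axis, ordered by median), red where called higher in epithelium, blue where called higher in mesenchyme and grey where not called. Black bars are list medians, from -4.12 for collagens to 4.61 for keratins, and the dotted line is the median of all genes, 0.17.

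The regulators of the epithelial and mesenchymal states were divided too, with 1 exception. SNAI, ZEB and TWIST factors are known as repressors of E-cadherin and drivers of epithelial to mesenchymal transition, while GRHL, OVOL and ESRP proteins maintain epithelial genes or epithelial splice forms. Of 10 transition factors, 9 were called higher in mesenchyme and 6 were separated (median -2.82). Zeb1 lay at 2.59 to 8.53 FPKM (median 4.42) in epithelium and 37.4 to 99.4 FPKM (median 60.5) in mesenchyme, and Zeb2 at 0.11 to 4.1 FPKM (median 1.25) and 52.2 to 149 FPKM (median 81.8). Prrx1, a homeobox factor of connective tissue, differed most (-5.51 ± 0.07), from 0 to 0.35 FPKM in epithelium to 36.04 to 57.99 FPKM in mesenchyme. Twist1, Foxc2 and Snai1 had no overlap between sides either, with differences of -3.19, -3.20 and -2.46. Snai2, which encodes SLUG, went the other way: it lay at 134 to 188 FPKM in cTEC, 37.4 to 65.2 FPKM in mTEC, 29.3 to 42.7 FPKM in CD140a and 10.6 to 16.4 FPKM in CD146. The highest CD140a library overlapped the lowest mTEC library, so Snai2 was called (1.96 ± 0.09, adjusted p = 8.86e-17) but not separated.

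The 16 epithelial transcription factors and splicing regulators tested were all called higher in epithelium and 12 were separated (median 2.65). Rbm47 and Esrp1, RNA-binding proteins that direct epithelial splicing, lay at 31.2 to 57.2 and 23.97 to 59.5 FPKM in epithelium and at most 0.11 and 0.25 FPKM in mesenchyme. Trp63, the master factor of stratified epithelia, differed by 4.96 ± 0.11, and the ETS factor Ehf by 4.55 ± 0.11. Grhl3, a grainyhead factor, was higher in mTEC than in cTEC (29.5 ± 9.48 against 1.82 ± 1.13 FPKM), and its cTEC libraries overlapped mesenchyme, where the highest library had 1.1 FPKM.

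Factors of thymic epithelial identity were called higher in epithelium in 12 of 13 cases and separated in 11 (median 3.92). Foxn1, the factor that thymic epithelial differentiation depends on, lay at 36.8 to 96.7 FPKM (median 48.5) in epithelium and 0 to 0.75 FPKM (median 0.04) in mesenchyme. The pharyngeal pouch factors Pax1 (5.38 ± 0.10), Pax9 (5.02 ± 0.10) and Eya1 (4.85 ± 0.10) were on both sides of the corticomedullary divide, as was Isl1 (4.26 ± 0.10). Aire, the factor of promiscuous medullary expression, was called (3.92 ± 0.12) but not separated, because its cTEC libraries held 0.34 to 1.98 FPKM against up to 0.44 FPKM in mesenchyme. Hoxa3, which is expressed in pouch endoderm and in neural crest, was the exception: it was called higher in mesenchyme (-0.93 ± 0.14), at 1.31 to 4.08 against 0.19 to 2.12 FPKM.

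Mesenchymal factors showed the reverse picture with more exceptions: 18 of 22 were called higher in mesenchyme, 11 were separated, and the median was -1.86. The largest differences were those of the early B cell factor family members Ebf2 (-4.61 ± 0.12) and Ebf1 (-4.02 ± 0.08), the homeobox gene Meox2 (-4.13 ± 0.10), the orphan receptor Nr2f2 (-3.98 ± 0.12), Osr1 (-3.27 ± 0.25) and Tbx2 (-3.14 ± 0.13). Meis2, a TALE homeobox factor, was separated towards epithelium (20.2 to 31.3 against 5.89 to 17.4 FPKM), and Foxc1 (0.39 ± 0.12) and Gli3 (0.19 ± 0.07) were called higher in epithelium by small margins that fell short of the threshold after quantile normalization, and for Gli3 after the other rescalings. Meis1 was not called (-0.16 ± 0.08, adjusted p = 0.066), though it was called higher in mesenchyme under all 3 rescalings.

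**Figure D3:**
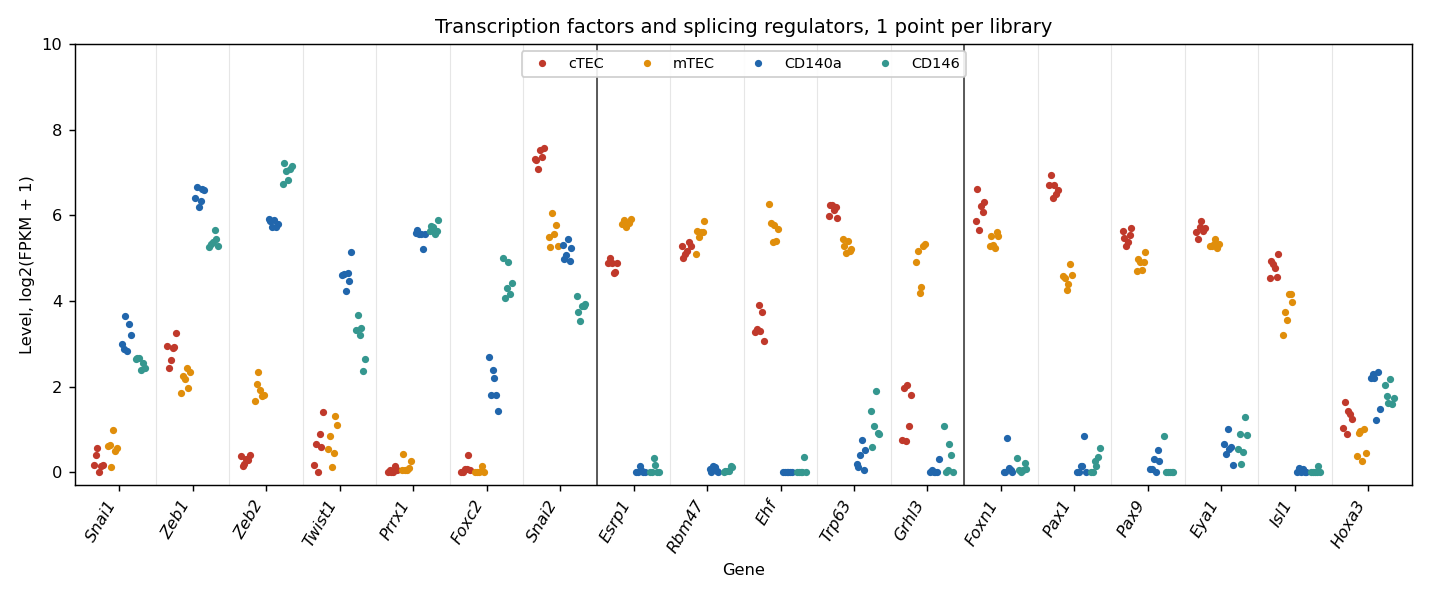
Levels, as log2(FPKM + 1), of transition factors (left of the first dark line), epithelial factors and splicing regulators (middle) and thymic epithelial factors with Hoxa3 (right), 1 point per library. Snai2 stands apart from the other transition factors with its highest level in cTEC (164 ± 19.6 FPKM), and Esrp1, Rbm47, Ehf and Foxn1 lie at or near 0 in every mesenchymal library.

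Promoters of the divided genes were read for the E-box CACCTG, the sequence recognised by SNAI and ZEB proteins. RefSeq promoter windows (250 bases before to 50 after a start, GRCm38.p6) were matched by symbol for 776 of the 1057 separated epithelial genes and 461 of the 659 separated mesenchymal genes. The motif was searched as CACCTG on both strands, so that CAGGTG counts as a match. It stood in at least 1 window of 34.3% of the matched epithelial genes and 15.8% of the matched mesenchymal genes, against 22.4% of the matched genes tested. Counted by window the shares were 28.7%, 14.2% and 19.4%, and 20.2% of all windows in the table. Most genes tested thus hold no match, and no window was matched by symbol for Cdh1. The promoters of 4 epithelial genes and of Col3a1 are shown as examples, with each match in capitals. They were chosen after the matches were seen, and many separated epithelial genes hold none. They lie at chr17:87635729-87636028 (plus strand), chr5:134946885-134947184 (minus strand), chr15:101712856-101713155 (minus strand), chr15:102004293-102004592 (minus strand) and chr1:45311288-45311587 (plus strand), each read 5′ to 3′ on the gene's strand:
Epcam: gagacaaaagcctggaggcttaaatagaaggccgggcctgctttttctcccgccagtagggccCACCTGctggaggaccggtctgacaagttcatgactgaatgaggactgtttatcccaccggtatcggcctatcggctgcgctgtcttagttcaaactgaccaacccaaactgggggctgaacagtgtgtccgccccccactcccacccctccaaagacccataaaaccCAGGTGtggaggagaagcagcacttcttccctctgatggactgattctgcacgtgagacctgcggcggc
Cldn4: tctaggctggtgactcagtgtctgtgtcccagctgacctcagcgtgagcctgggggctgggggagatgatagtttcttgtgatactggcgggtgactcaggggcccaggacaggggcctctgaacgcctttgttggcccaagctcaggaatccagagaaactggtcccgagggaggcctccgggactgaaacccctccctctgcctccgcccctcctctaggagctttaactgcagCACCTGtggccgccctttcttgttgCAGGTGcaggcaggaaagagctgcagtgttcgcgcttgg
Krt5: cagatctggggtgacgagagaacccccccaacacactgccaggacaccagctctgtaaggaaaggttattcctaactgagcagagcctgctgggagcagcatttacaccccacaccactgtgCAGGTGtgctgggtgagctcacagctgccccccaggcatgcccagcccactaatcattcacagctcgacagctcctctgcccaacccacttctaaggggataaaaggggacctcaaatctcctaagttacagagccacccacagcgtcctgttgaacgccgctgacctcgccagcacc
Krt8: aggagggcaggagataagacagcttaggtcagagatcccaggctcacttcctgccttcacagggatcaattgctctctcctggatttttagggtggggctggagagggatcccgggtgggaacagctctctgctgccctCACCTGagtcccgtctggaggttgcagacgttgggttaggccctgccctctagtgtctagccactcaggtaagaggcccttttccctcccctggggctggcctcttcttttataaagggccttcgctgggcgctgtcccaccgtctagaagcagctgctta
Col3a1: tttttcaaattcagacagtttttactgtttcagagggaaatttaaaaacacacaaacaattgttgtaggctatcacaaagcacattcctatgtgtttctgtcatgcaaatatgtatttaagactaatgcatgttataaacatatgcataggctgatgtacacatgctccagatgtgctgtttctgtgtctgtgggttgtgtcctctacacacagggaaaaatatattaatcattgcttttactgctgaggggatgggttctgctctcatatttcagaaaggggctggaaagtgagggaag

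Counted in bases from the annotated start at 0, the matches of Epcam begin at -187 and -19, those of Cldn4 at -14 and 11, that of Krt5 at -128 and that of Krt8 at -111, and the Col3a1 window holds none. The levels of these genes are the ones given above, for example 274 to 588 against 0 to 2.61 FPKM for Epcam and 0.18 to 2.6 against 184 to 2259.9 FPKM for Col3a1. Other motifs gave smaller or opposite contrasts by window. The AP-2 motif GCCNNNGGC stood in 22.6% of epithelial, 30.2% of mesenchymal and 23.5% of tested windows, the TEAD motif CATTCC in 13.1%, 16.0% and 12.6%, and the TATA box TATAAA in 12.7%, 9.2% and 8.8%. The grainyhead motif AACCNGGTT was rare (0.6%, 0.3% and 0.3%). These are matches of letters, with no test, and binding was not measured.

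Interstitial collagens had the most negative median of the 24 lists. Of 16 collagens outside basement membranes, 15 were called higher in mesenchyme, 11 were separated and the median difference was -4.12. Col1a1 and Col1a2, the chains of type I collagen, lay at 30.5 to 1525 FPKM (median 617) and 93.9 to 998 FPKM (median 496) in mesenchyme and at most 5.46 and 1.57 FPKM in epithelium. In both genes CD140a libraries stood above CD146 libraries (1068 to 1525 against 30.5 to 166 FPKM for Col1a1). The type VI and V chains Col6a3 (-6.37 ± 0.07), Col5a2 (-5.40 ± 0.08) and Col6a2 (-5.18 ± 0.12) were more even between the mesenchymal populations, with Col6a3 at 161 ± 10.9 and 94.99 ± 8.04 FPKM. Col12a1, a fibril-associated collagen, was the member not called (-0.16 ± 0.12, adjusted p = 0.26): it lay at 28.9 to 55.9 FPKM in epithelium and 34.2 to 79.7 FPKM in mesenchyme, the sides overlapping over most of their range, and was called higher in mesenchyme only after rescaling to TPM or quantile normalization.

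The machinery that folds, crosslinks and cuts collagen lay on the same side. Of 20 such genes 19 were called higher in mesenchyme and 14 were separated (median -2.38). The procollagen enhancer Pcolce lay at 9.45 to 81.3 against 0.22 to 2.43 FPKM, the collagen chaperone Serpinh1 (HSP47) at 82.1 to 203 against 7.24 to 24.1 FPKM, and the lysyl oxidases Loxl1 and Lox differed by -3.61 ± 0.20 and -3.18 ± 0.30. Plod1, a lysyl hydroxylase, and Adamts2, a procollagen peptidase, differed by -3.16 ± 0.10 and -2.77 ± 0.12. P4ha3, a prolyl hydroxylase subunit, was the 1 member called higher in epithelium (0.50 ± 0.18, adjusted p = 0.014), carried by cTEC (74.2 ± 10.2 FPKM, against 11.4 ± 2.72 in mTEC, 37.4 ± 7.13 in CD140a and 12.9 ± 8.65 in CD146), and it missed the threshold after rescaling to TPM and after quantile normalization.

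Matrix glycoproteins and proteoglycans were called higher in mesenchyme in 23 of 24 cases, with 10 separated and a median of -3.74. Postn (periostin) lay at 488 to 935 FPKM (median 620.5) in mesenchyme and 0.92 to 4.22 FPKM (median 2.19) in epithelium, with both mesenchymal populations high. Bgn (biglycan), Sparc and Fbn1 (fibrillin) were separated as well, with differences of -6.59 ± 0.14, -5.39 ± 0.12 and -4.92 ± 0.08. Lum (lumican) was a CD140a gene, at 348 to 641 FPKM there and 3.81 to 11.04 FPKM in CD146, where its libraries met those of mTEC, while Eln (elastin) varied most between CD146 libraries, at 21.2 to 765 FPKM there and 17.9 to 43.9 FPKM in CD140a. Tnc (tenascin C) was the exception. It lay at 1096 to 1352 FPKM in the cTEC and 359.8 to 433 FPKM in the mTEC libraries, against 6.17 to 23.6 in CD140a and 55.7 to 89.7 FPKM in CD146, a separated difference of 4.40 ± 0.15 (adjusted p = 2.41e-19) towards epithelium.

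Basement membrane genes leaned to mesenchyme, with laminin chains on both sides. Of 21 genes, 14 were called higher in mesenchyme (10 separated), 4 higher in epithelium (3 separated) and 3 were not called. The shares of all genes in those directions were 23.7% and 42.7%. Lama3 and Lamb3, laminin chains that anchor hemidesmosomes, were epithelial: Lama3 lay at 47.4 to 106 against 0.03 to 5.37 FPKM and Lamb3 at 2.27 to 11.4 against 0 to 0.94 FPKM. The epithelial call of Lama1 was small and at low level (0.31 ± 0.09, at most 1.7 FPKM) and turned to -0.01 after quantile normalization, having missed the threshold after rescaling to TPM. On the mesenchymal side stood Lama2, the alpha chain of laminin 211 (-5.72 ± 0.08), Lamb2 (-3.22 ± 0.09), the linker Nid1, nidogen (-5.02 ± 0.12), and Hspg2, perlecan (-3.04 ± 0.13). Nid1 reached 819 to 1037 FPKM in CD140a, 208 to 255 in CD146 and at most 21 FPKM in epithelium. Lama5, Agrn (agrin) and Lamc3 were not called (-0.08 ± 0.12, 0.05 ± 0.10 and -0.23 ± 0.15, adjusted p = 0.56, 0.68 and 0.18), and for Lama5 the CD146 mean of 30.96 ± 2.65 FPKM stood above epithelium while the CD140a mean of 0.872 ± 0.51 FPKM stood below it. Lama5 and Lamc3 were called higher in mesenchyme after quantile normalization.

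The integrins, the receptors for these matrices, leaned to mesenchyme too, with members on both sides. Of 19, 12 were called higher in mesenchyme (5 separated), 5 higher in epithelium (3 separated) and 2 not called, beside 23.7% and 42.7% of all genes. Itgb4 and Itga6, which pair as the laminin receptor of hemidesmosomes, lay at 18.6 to 36.3 and 41.8 to 115 FPKM in epithelium and at 0.33 to 2.78 and 1.16 to 27.5 FPKM in mesenchyme, and Itga3, another laminin receptor chain, differed by 2.98 ± 0.19. Itgav (0.93 ± 0.07) and its epithelial partner Itgb6 (1.38 ± 0.12) were called higher in epithelium, Itgav with a difference short of the 1 that separation asks for and Itgb6 with overlapping libraries. Itgb5 (-3.87 ± 0.12), Itga8 (-3.13 ± 0.19) and the collagen receptor chain Itga1 (-2.94 ± 0.12) were separated towards mesenchyme, and Itga8 and Itga1 were mainly in CD146 (65.3 ± 39.5 and 62.4 ± 9.14 FPKM, against 7.18 ± 1.88 and 7.31 ± 1.91 in CD140a). Itgb7 (-0.44 ± 0.22) and Itgb8 (0.25 ± 0.12) were not called, and Itgb7 was called higher in mesenchyme after rescaling to TPM and after quantile normalization.

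Cadherins described in mesenchyme differed less than E-cadherin did. Of 8 cadherins and protocadherins, 7 were called higher in mesenchyme and 4 separated (median -1.35): Cdh6 (-3.06 ± 0.12), Pcdh9 (-2.25 ± 0.13), Pcdh18 (-2.17 ± 0.09) and Pcdh19 (-1.73 ± 0.10). Cdh2, which encodes N-cadherin, differed by only -0.42 ± 0.10, and its mean was above that of CD140a (3.98 ± 1.06 FPKM) in both cTEC (5.23 ± 0.608) and mTEC (7.37 ± 1.56). Pcdh7 was not called (0.69 ± 0.33, adjusted p = 0.07).

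Growth factors that mesenchyme is described to supply were, for the most part, higher there. Of 18 factors 13 were called higher in mesenchyme, but only 3 were separated, 3 were called higher in epithelium (2 separated) and 2 were not called (median -1.32). Of all genes, 23.7% were called higher in mesenchyme and 42.7% higher in epithelium. Fgf10 and Fgf7, the ligands of the epithelial FGF receptor FGFR2-IIIb, lay at 38.4 to 64.9 and 17.99 to 43.9 FPKM in CD140a libraries and at most 0.92 and 2.72 FPKM in every other library. Igf1 was at 87.7 to 141 FPKM in CD140a, 5.32 to 11.7 FPKM in mTEC and 2.61 to 5.26 FPKM in CD146, so that mTEC stood above CD146. Igf2 and Bmp4 were likewise led by CD140a (26.8 ± 7.46 and 56.9 ± 13.99 FPKM, SD, n = 6) over CD146 (0.63 ± 0.338 and 8.71 ± 7.63 FPKM). Wnt2 (-0.41 ± 0.18) and Bmp2 (-0.04 ± 0.12) were not called (adjusted p = 0.050 and 0.8), and Wnt2 was called higher in mesenchyme after upper quartile scaling and after quantile normalization.

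Fgfr2, the receptor for the FGF pair, was separated towards epithelium, at 20.2 to 49.3 FPKM (median 36.1) against 0.35 to 4.96 FPKM (median 3.62) in mesenchyme (3.32 ± 0.17, adjusted p = 2.13e-15). Fgfr1, its relative, was separated the other way, at 10.8 to 38.2 FPKM (median 23.7) in mesenchyme and 0.54 to 4.07 FPKM (median 2.17) in epithelium. Gene-level values do not tell which splice form of Fgfr2 was present. Other receptors called higher in epithelium were Met, the HGF receptor (1.92 ± 0.13), Erbb3 (1.63 ± 0.14, at 22.7 ± 4.13 FPKM in mTEC and 1.25 ± 0.468 in cTEC), the R-spondin receptor Lgr4 (1.38 ± 0.08), Egfr (0.85 ± 0.06), Erbb2 (0.49 ± 0.09) and Igf1r (0.19 ± 0.07), the last of which missed the threshold under each of the 3 rescalings. Igf2r, the clearance receptor of IGF2, was separated towards mesenchyme (48.2 to 109.6 against 10.3 to 22.4 FPKM). Of the 20 receptors of this list 9 were called higher in mesenchyme, 7 higher in epithelium and 4 not called (Acvr2b, Tgfbr1, Bmpr1b and Fgfr3, with differences of -0.40, -0.04, -0.0038 and 0.0012), beside a median of -0.22. The 7 of 20 called higher in epithelium are no larger a share than the 42.7% of all genes. The difference of Fgfr3 changed to -0.29 after quantile normalization, where it was called higher in mesenchyme. Acvr2b was called higher in mesenchyme under all 3 rescalings.

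GAS6 and neuregulin ran in the opposite direction to their list. Gas6, the ligand of the TAM receptors that bind dying cells, lay at 112 to 153 FPKM in the cTEC and 22.4 to 45.8 FPKM in the mTEC libraries, against 1 to 11.7 FPKM in mesenchyme, and its difference was 3.89 ± 0.18 (adjusted p = 1.94e-16). Its receptors Axl and Mertk were separated towards mesenchyme, Axl at 87.03 to 203 FPKM (median 130.2) against 3.91 to 39.02 FPKM (median 14.2) and Mertk at 7.91 to 24.1 FPKM (median 14.1) against 0.06 to 2.31 FPKM (median 0.905). Macrophages also express Mertk. The macrophage and dendritic list summed to 13.7 to 42.5 FPKM in CD140a and 21.4 to 49.02 FPKM in CD146, mostly through Cd68 (above), and its part in the Mertk level was not tested. Nrg1 (neuregulin) lay at 5.9 to 18.97 FPKM in epithelium and 0.13 to 2.75 FPKM in mesenchyme (2.59 ± 0.10). Its receptor gene Erbb3 was called on the same side through mTEC, while the cTEC mean (above) stood below CD146 (1.98 to 6.85 FPKM). The part of Schwann cells, whose list is given above, in the Erbb3 levels was not tested. Pdgfc was called higher in epithelium by a small margin (0.47 ± 0.15) that missed the threshold after quantile normalization.

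Growth factors described in epithelium were called higher there in 12 of 16 cases and higher in mesenchyme in 3. The 1 not called was Btc (0.17 ± 0.14). Over all genes the shares were 42.7% higher in epithelium and 23.7% higher in mesenchyme. After rescaling to TPM 10 of the 16 were called higher in epithelium, and after quantile normalization 9. Only 2 were separated towards epithelium and the median was 0.61. Those 2 were Wnt4 (8.84 to 32.3 against 0.62 to 3.52 FPKM), which is known to act on Foxn1, and the Notch ligand Jag2 (1.78 to 10.7 against 0 to 0.56 FPKM). The EGF family ligands Areg (2.35 ± 0.21) and Tgfa (1.92 ± 0.11) were mainly in mTEC (18.6 ± 4.42 and 9.61 ± 1.201 FPKM, against 1.32 ± 0.933 and 1.302 ± 0.443 in cTEC). Fgf1 was separated towards mesenchyme (-2.46 ± 0.16), and Jag1 was called in that direction (-0.46 ± 0.10), with CD146 at the top (71.1 ± 6.87 FPKM), while CD140a (13.4 ± 2.93 FPKM) was below both epithelial populations. PDGF ligands gave no clean division: Pdgfa had 76.8 ± 14.1 FPKM in CD146, 27.3 ± 9.299 in mTEC, 23.7 ± 6.16 in cTEC and 4.18 ± 2.404 in CD140a. Its difference of 0.41 ± 0.17 missed the threshold under each of the 3 rescalings, while that of Pdgfb was 0.57 ± 0.12.

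Their receptors and targets in mesenchyme were called higher there in 11 of 15 cases, with 5 separated, beside 23.7% of all genes. Pdgfra, 1 of the 11, encodes the sorted protein CD140a and is therefore no independent finding. Pdgfrb, the receptor of PDGF-B on mural cells, lay at 32.4 to 196 FPKM (median 87.1) in mesenchyme and 0.18 to 4.41 FPKM (median 1.98) in epithelium (-4.99 ± 0.10, adjusted p = 6.74e-25). Ednra, the endothelin receptor, differed by -4.49 ± 0.14 and Gas1, a hedgehog co-receptor, by -2.89 ± 0.14, both without overlap. Notch3 was called (-3.03 ± 0.15) but was a CD146 gene, at 72.4 to 117 FPKM there and 0.75 to 4.59 FPKM in CD140a, within reach of the epithelial range of 0.65 to 2.6 FPKM. Hhip, which encodes a hedgehog-binding inhibitor that is itself induced by hedgehog, was separated towards epithelium (12.4 to 25.1 against 0.01 to 3.66 FPKM, 3.46 ± 0.18). Ptch1, another hedgehog target, was not called (-0.04 ± 0.09, adjusted p = 0.71), with 4.2 to 5.58 FPKM in epithelium and 3.2 to 6.54 FPKM in mesenchyme, though it was called higher in mesenchyme after quantile normalization. Notch2 (0.55 ± 0.06) and Boc (0.22 ± 0.09) were called higher in epithelium by small margins, that of Boc missing the threshold under each of the 3 rescalings.

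**Figure D4:**
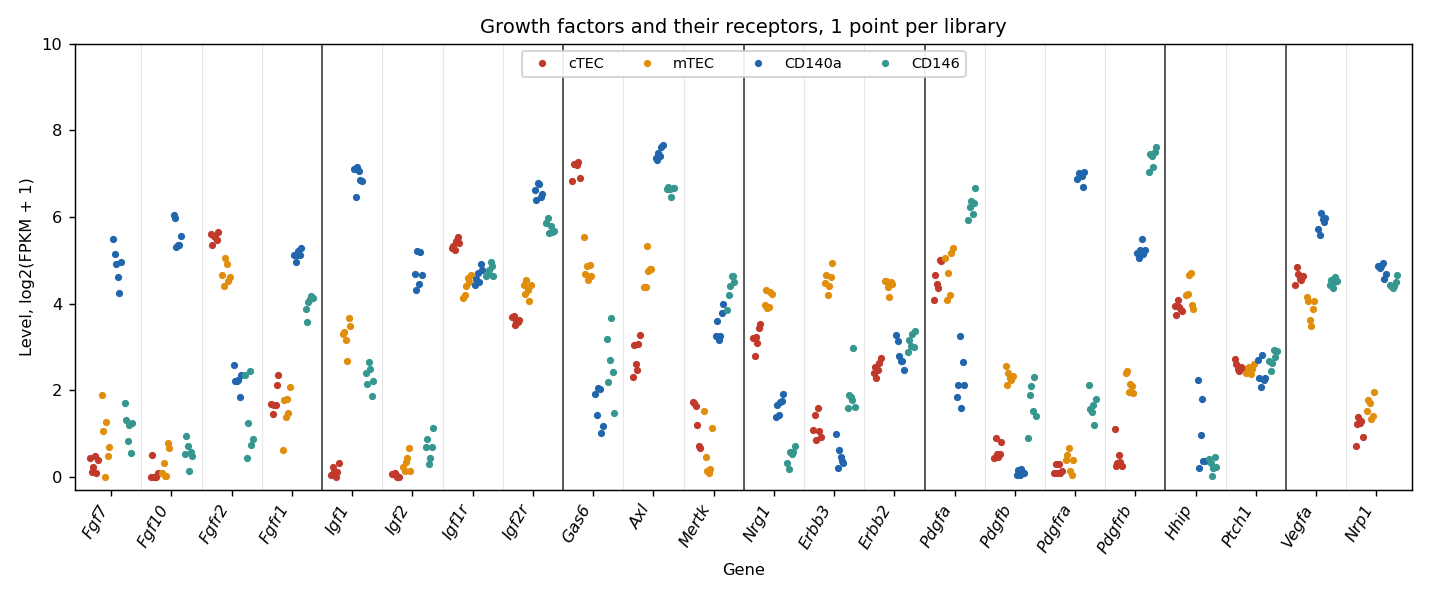
Levels, as log2(FPKM + 1), of growth factors and receptors in the 24 libraries, grouped by dark lines into FGF, IGF, GAS6, neuregulin, PDGF, hedgehog and VEGF genes. Fgf7 and Fgf10 are high only in the 6 CD140a libraries while Fgfr2 is highest in cTEC and mTEC, and Gas6 and its receptors Axl and Mertk lie on opposite sides.

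The genes of VEGF ligands and receptors, among them that of VEGF-A, which Trap binds, leaned to mesenchyme. Of 9 tested, 6 were called higher there, 1 higher in epithelium and 2 not called (median -0.94). The shares of all genes in those directions were 23.7% and 42.7%. Vegfa lay at 47.2 to 67.7 FPKM in CD140a, 20.6 to 27.9 in cTEC, 19.5 to 23.5 in CD146 and 10.2 to 16.7 in mTEC (-0.94 ± 0.08), so cTEC and CD146 overlapped. Nrp1, the VEGF co-receptor neuropilin 1, was the separated member (19.6 to 29.5 against 0.62 to 2.88 FPKM), and Nrp2 (-1.66 ± 0.12), Pgf (-2.39 ± 0.18), Figf, which encodes VEGF-D (-1.55 ± 0.26), and Flt1 (-0.71 ± 0.12) were called in the same direction. Flt4 was called higher in epithelium at levels of at most 1.5 FPKM (0.39 ± 0.13) and missed the threshold after quantile normalization. Vegfb (0.06 ± 0.20) and Vegfc (0.21 ± 0.17) were not called, and the receptor gene Kdr did not reach 1 FPKM in 2 libraries and was not tested.

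Genes that attract and sustain thymocytes were largely epithelial. Of 13 such cytokines, chemokines and a Notch ligand, 11 were called higher in epithelium, 7 were separated and 2 were not called (median 2.00). Over all genes 42.7% were called higher in epithelium. Ccl21a, the medullary chemokine for positively selected thymocytes, lay at 320.3 to 1749 FPKM in mTEC and 173 to 749 FPKM in cTEC against 0 to 2.53 FPKM in mesenchyme. Il7, the thymocyte survival cytokine, lay at 25.2 to 90.96 FPKM (median 50.6) in epithelium and 0.16 to 1.22 FPKM (median 0.47) in mesenchyme, and Ccl25, which attracts progenitors, at 21.4 to 147 FPKM (median 68.4) and 2.62 to 5.67 FPKM (median 4.82). Cxcl16 and the interferon-induced Cxcl10 were separated by 3.15 ± 0.14 and 2.42 ± 0.12, and mesenchyme still held 107 to 308 FPKM of Cxcl10. Dll4, the Notch ligand that commits progenitors to the T lineage, was separated at low level (2.29 to 9.67 against 0.03 to 1.35 FPKM). Ccl19 was called (2.20 ± 0.23) but overlapped, with 10.5 to 21.04 FPKM in CD146 and 4.19 to 20.7 FPKM in cTEC. Cxcl12 was called (1.03 ± 0.14) through cTEC alone (59.3 ± 4.75 FPKM), since mTEC (3.59 ± 1.61 FPKM) was below both CD140a (4.88 ± 2.13) and CD146 (10.3 ± 1.45). Kitl, the ligand of KIT, was not called (-0.15 ± 0.10, adjusted p = 0.2), with cTEC (29.2 ± 5.84 FPKM) and CD146 (27.5 ± 2.93 FPKM) both high; it was called higher in mesenchyme after rescaling to TPM and after quantile normalization. Tslp was not called either (-0.40 ± 0.29).

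Antigen presentation by MHC class II was among the largest differences of any group. All 16 genes tested were called higher in epithelium, 14 were separated, and the median was 4.03. H2-Aa, H2-Eb1 and Cd74, the invariant chain, lay at 263 to 1776, 186 to 704 and 859 to 2928 FPKM in epithelium and at most 3.29, 2.27 and 10.2 FPKM in mesenchyme. Their transactivator Ciita was even between cTEC (16.5 ± 1.57 FPKM) and mTEC (13.8 ± 2.26 FPKM) and under 1.2 FPKM in every mesenchymal library. H2-DMb2, which loads peptides, differed by 4.92 ± 0.14, and Prss16, the thymus-specific serine protease of the cortex, by 5.24 ± 0.18 (252 to 394 FPKM in cTEC, 3.47 to 13.1 in mTEC). Dendritic cells and macrophages also express class II genes. Their list summed to 23.5 to 81.2 FPKM in mTEC and 9.7 to 17.8 FPKM in cTEC, and its part in the class II levels was not tested. Class I presentation was higher in epithelium by less: all 12 genes were called, 6 were separated, and the median was 1.84. H2-K1 lay at 346 to 938 FPKM in epithelium and 25.8 to 123 FPKM in mesenchyme, H2-D1 differed by 2.37 ± 0.10, and the proteasome subunit Psmb9 by 3.05 ± 0.19. Psmb11, the thymoproteasome subunit, was a cTEC gene (24.3 to 48.4 FPKM, against 0.17 to 2.56 in mTEC).

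Cell cycle genes were modestly higher in epithelium. Of 23, 19 were called in that direction, beside 42.7% of all genes, and none in the other. Only 1 was separated, and the median was 0.62 against 0.17 over all genes. The separated gene was Rrm2, a ribonucleotide reductase subunit (16.5 to 41.8 against 2.54 to 12.6 FPKM). Top2a (1.20 ± 0.23) and Mki67 (1.02 ± 0.20), genes of dividing cells, overlapped between sides, with Mki67 at 44.8 to 103 FPKM in epithelium and 15.01 to 79.3 FPKM in mesenchyme. Mcm3, Mcm6, Cdc20 and Aurkb were not called (0.27, 0.28, 0.30 and 0.44). The count fell to 14 of 23 after rescaling to TPM and to 12 after quantile normalization, with none called higher in mesenchyme under either. Over all 16100 genes the calls higher in epithelium fell as well, from 6867 to 5690 and 5094. Thymocytes divide too, and the thymocyte sum was highest in cTEC (above); its part in this result was not tested.

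Comparisons that share no library were set side by side to see how far the compartment difference recurred. Between cTEC and CD140a 8409 genes were called (52.2% of those tested), and between mTEC and CD146 9360 (58.1%). Of these, 4534 were called in both with the same direction (53.92% of the first and 48.44% of the second), 2868 of them higher in epithelium and 1666 lower, and 1061 were called in opposite directions. The differences correlated across the 16100 genes at Pearson r = 0.5204, a description over genes, which are not independent. Rgs5, a mural cell gene, is an example of opposite directions: it lay at 2783 to 4382 FPKM in CD146, 425 to 689 FPKM in mTEC, 11.6 to 44.9 FPKM in the cTEC libraries and 0.51 to 39.4 FPKM in CD140a, and its compartment difference was -0.14 ± 0.40 (adjusted p = 0.78). Igf1 was another, higher in mTEC than in CD146 and lower in cTEC than in CD140a.

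**Figure D5:**
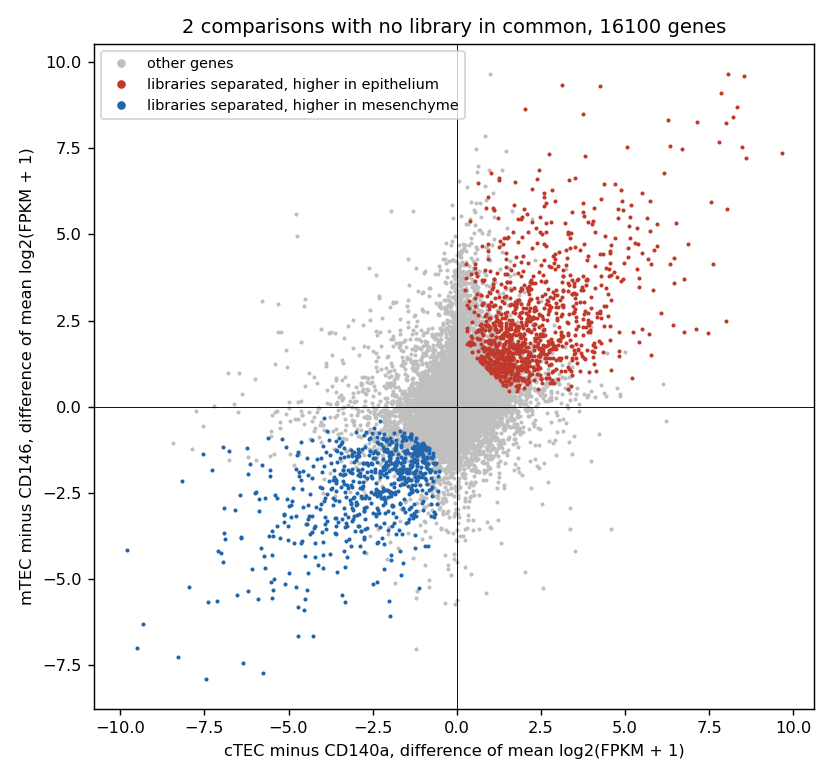
Difference of mean log2(FPKM + 1) between cTEC and CD140a (x axis) and between mTEC and CD146 (y axis), 1 point for each of the 16100 genes, with the 1057 genes separated towards epithelium in red and the 659 separated towards mesenchyme in blue. The coloured genes lie at the upper right and lower left by the rule that chose them, and the grey genes lie on all sides, among them genes called in opposite directions.

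The compartment difference was present within each treatment. The control libraries alone (4 of each side) gave 6950 calls (43.2%) and the Trap libraries alone (8 of each side) 9579 (59.5%). A total of 6386 genes were called in both with the same direction (91.88% of the control calls and 66.67% of the Trap calls) and 3 in opposite directions, and the differences correlated across genes at r = 0.9629. Whether the Trap change itself differed between epithelium and mesenchyme was tested with 1 mean for each of the 8 groups of population and treatment. Of the 16100 genes, 754 had an unadjusted limma p under 0.05, which is no more than chance alone would give at that threshold. After adjustment no gene passed with a higher change in epithelium (0%) and 2 passed with a lower one (0.0124%). The 2 were Magea1 (ENSMUSG00000096644, chromosome X, 155088686 to 155089793) and Rhox5 (ENSMUSG00000095180, chromosome X, 37804842 to 37808876), germ cell genes listed at 0 in all 12 mesenchymal libraries. Magea1 lay at 2.94 and 4.34 FPKM in the control mTEC libraries, at 0, 0, 0.29 and 0 FPKM in the Trap mTEC libraries and at 0 in cTEC. Rhox5 lay at 3.64 and 5.69 FPKM in the control cTEC libraries, at 0.13, 0.15, 0.08 and 0.08 FPKM in the Trap cTEC libraries and at most 0.4 FPKM in mTEC. The difference of Trap changes was -1.05 ± 0.16 for Magea1 (limma adjusted p = 0.018) and -1.07 ± 0.17 for Rhox5 (adjusted p = 0.025), in each case through 1 epithelial population and 2 control libraries. Each reached 1 FPKM only in those 2 control libraries and so entered the test through the group where it was high, which builds a lower level with Trap into the selection. With no filter on low values the count of genes was also 2. Both calls were lost with a pseudocount of 0.1 and after rescaling to TPM, which are related changes because both lessen the weight of the added 1. They were also lost with a replicate block, and leaving out single libraries gave 0 to 7 genes.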

How the data were processed

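RNA was extracted from sorted cells, amplified (Ovation RNA-Seq V2) and sequenced in pairs on a HiSeq3000, per the labels' protocols. The authors deposited FPKM for 18847 protein-coding genes. The submitters' processing notes name bcl2fastq 2.17, STAR, DESeq2 and GRCm38/mm10; their settings are not given in the labels used here. Amplification can distort levels, and raw counts were not used here. Positions came from GENCODE M21 (18836 genes matched by identifier), and 27 symbols that a spreadsheet had turned into dates were restored from it. No value column of another origin was present.

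The deposited FPKM were turned into log2(FPKM + 1) and genes at 1 FPKM or more in at least 2 of 24 libraries were fitted with limma 3.58.1 (R 4.3.3), 1 mean per population, variance trend on, two-sided, adjusted p under 0.05. The rescalings were to a fixed sum per library (TPM), to the upper quartile, and by quantiles. The added 1 was kept after the TPM rescaling, where it stands for less than 1 FPKM. Other alternatives were another pseudocount, other filters, fits by treatment or by pair of populations, a replicate block and leaving out each library. The fit was tested on simulated data. Fragments per library were estimated as the number that makes low FPKM values whole fragments at each gene's exon length; in all 24 libraries the score (0.289 to 0.501) was above that with shuffled lengths (0.025 to 0.171), and it remains an estimate.

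The comparison, its members and the gene lists were chosen with earlier results of these data known. Named genes are the 15 largest separated differences in each direction at 5 FPKM or more, the 6 largest of each list with the members that went against it or did not pass, and the sorting genes. Cldn4, Acta2, Kcnj8, Cdh2, Aire, Fgf7, Pdgfa, Pdgfb, Dll4, Cxcl12, Ciita, Rgs5 and Tek were chosen after their values were seen. Some genes that this rule names are not reported here. Below the filter on low values were Col13a1, Col4a4, Ovol2, Elf5, Gsc, Tbx1, Foxd1, Fgfr4, Ihh, Wnt3a and Kdr.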

Additional observations from a re-analysis of the deposited data

Results flagged for a closer look

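Within the 6 libraries of a population, 28 of 654 combinations of a named gene and a population with a mean of at least 1 FPKM (4.3%) had 1 library apart from the others by more than Dixon's critical value for 6 samples on the log2 scale, where chance gives about 1 in 20. The library stood above the others for Enpep in mTEC Trap 4 (3.95 FPKM, others 1.21 to 1.93), Pecam1 in cTEC Trap 3 (3.6 FPKM, others 2.21 to 2.61), H2-Ab1 in CD146 Trap 2 (4.08 FPKM, others 0.25 to 0.84), Postn in mTEC Trap 1 (4.22 FPKM, others 1.79 to 2.32), Cpe in mTEC control 1 (9.53 FPKM, others 2.81 to 3.91), Epb41l5 in CD140a Trap 1 (2.57 FPKM, others 0.74 to 1.16), Spint2 in cTEC control 2 (21.4 FPKM, others 16.3 to 17.9), Cald1 in CD146 Trap 1 (278 FPKM, others 225 to 239), Lama1 in mTEC control 2 (1.7 FPKM, others 1.26 to 1.4), Gas6 in mTEC control 1 (45.8 FPKM, others 22.4 to 28.6), Erbb3 in CD146 Trap 3 (6.85 FPKM, others 1.98 to 2.68), Cxcl16 in CD146 Trap 4 (12.8 FPKM, others 3.97 to 5.31) and Flt1 in CD140a Trap 4 (2.57 FPKM, others 1.01 to 1.49). It stood below the others for Ccl21a in cTEC control 1 (173 FPKM, others 446 to 749), Lama2 in CD140a control 1 (106 FPKM, others 132 to 144), Vim in cTEC control 1 (6.74 FPKM, others 12.6 to 17.2), Myh11 in cTEC Trap 3 (22.3 FPKM, others 38.9 to 43.8), Tagln in CD146 Trap 4 (3.9 FPKM, others 8.55 to 13.2), Tnc in CD146 control 2 (55.7 FPKM, others 75.4 to 89.7), Lama3 in cTEC control 2 (78.7 FPKM, others 95.4 to 106), Itgb4 in mTEC control 2 (26.6 FPKM, others 32.4 to 36.3), Pcdh9 in CD140a Trap 1 (5.83 FPKM, others 10.03 to 10.7), Prrx1 in CD140a Trap 3 (36.04 FPKM, others 46.04 to 49.4), Bmp4 in CD140a Trap 2 (30.6 FPKM, others 55.4 to 72.03), Axl in CD146 Trap 2 (87.03 FPKM, others 99.5 to 102), Tgfa in mTEC control 1 (7.21 FPKM, others 9.75 to 10.3), Ccl25 in CD146 Trap 4 (2.62 FPKM, others 4.93 to 5.67) and Rgs5 in cTEC control 1 (11.6 FPKM, others 28.96 to 44.9).

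The interaction term for the Trap change passed the threshold for Rhox5 (-1.07) and Magea1 (-1.05), each through a single epithelial population. On the log2 scale Rhox5 changed by -2.33 in cTEC and 0.19 in mTEC, and Magea1 by -2.11 in mTEC and 0 in cTEC. As described above, these genes entered the test through the control libraries where they were high, which builds in a lower level with Trap. The calls were lost with a pseudocount of 0.1 and after rescaling to TPM. The term therefore cannot decide whether the compartments responded differently to Trap.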

How the results depend on the processing

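The counts of genes called kept within 1.5 times their value under a pseudocount of 0.1, under no filter or one at 5 FPKM, under the 3 rescalings and under fits with 8 groups or with 1 weight per population. With control libraries only they fell to 4552 higher in epithelium and 2398 higher in mesenchyme, with 1617 separated towards epithelium, fewer libraries being easier to separate. Leaving out single libraries gave 6719 to 6892 and 3730 to 3823 calls, 1059 to 1090 and 662 to 685 separated genes, and 0 to 7 genes for the Trap difference: 7 without mTEC control 2, 5 without mTEC control 1, 4 without mTEC Trap 4, and none without cTEC control 2 or without any one control library of CD140a or CD146. The Trap difference gave 0 genes with the pseudocount of 0.1, with the 5 FPKM filter, after rescaling to TPM and with a replicate block. The same numbers recur in each population, so a replicate block was fitted: it gave 6937 and 3893 calls. Same-numbered libraries deviated together at correlations of -0.04976 to 0.1028 in 36 pairs (1 over 0.1). The negative ones were all of controls, where 2 libraries give both numbers the same value. Every Trap pair was positive (0.001109 to 0.1028). Trap libraries also correlated best with their own number in 28 of 48 lookups, where an even spread over the 4 numbers gives 12. The data therefore do not settle whether the numbers pair the libraries, and the main fits leave them unpaired.

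Single pairs of populations separate more genes, because fewer libraries must not overlap: 1809 towards epithelium and 1552 towards mesenchyme between cTEC and CD140a, 2920 and 1342 between mTEC and CD146, 1633 and 1525 between cTEC and CD146 (4168 higher in epithelium), and 3212 and 1376 between mTEC and CD140a. In 2 comparisons chosen after seeing the data, mTEC alone against both mesenchymal populations separated 2552 genes towards epithelium, and cTEC alone 999 towards mesenchyme. Between cTEC and CD140a the differences that changed sign were Mcam 0.43, Tpm1 1.83, Acta2 2.04, Lama1 -0.048, Lama5 2.19, Itgb8 -1.25, Pcdh7 -0.67, Cdh2 0.34, Erbb2 -0.33, Bmpr1b 0.81, Jag1 0.54, Btc -0.38, Kitl 1.29, Vegfc -1.03 and Rgs5 2.54. Between mTEC and CD146 the differences that changed sign were Enpep -1.63, Synm -1.73, Tpm2 -0.94, Cnn2 -0.63, Myh11 -3.54, Actn1 -0.46, Tagln -1.78, Agrn -1.40, Gli3 -0.16, Foxc1 -0.34, Igf1 0.97, Wnt2 0.93, Igf1r -0.35, Pdgfa -1.51, Cxcl12 -1.36 and Tek 0.68. Between cTEC and CD146 the differences that changed sign were Tpm2 -1.97, Cnn2 -0.018, Myh11 -3.55, Lama1 -0.18, Agrn -0.57, Itgb8 -2.01, Foxc1 -0.59, Meis1 0.34, Erbb2 -0.62, Erbb3 -0.80, Tgfbr1 0.31, Fgfr3 -0.93, Vegfa 0.13, Pdgfa -1.67, Pdgfb -1.08 and Ccl19 -0.42. Between mTEC and CD140a the differences that changed sign were Enpep -0.43, Mcam 0.70, Synm -0.45, Tpm1 1.24, Acta2 1.51, P4ha3 -1.64, Lama5 1.77, Cdh2 0.76, Gli3 -0.55, Bmp2 2.16, Igf1r -0.24, Egfr -0.31, Jag1 0.90, Boc -0.92, Cxcl12 -0.36, Flt1 0.47, Vegfc -0.63 and Rgs5 6.57. With mTEC alone against both mesenchymal populations the differences that changed sign were Enpep -1.03, Synm -1.09, Tagln -0.89, P4ha3 -0.81, Agrn -0.37, Gli3 -0.35, Bmp2 1.09, Igf1r -0.29, Boc -0.32, Cxcl12 -0.86 and Rgs5 1.88. With cTEC alone against both the differences that changed sign were Tpm2 -0.14, Tpm1 0.26, Lama1 -0.11, Itgb8 -1.63, Erbb2 -0.48, Erbb3 -0.067, Fgfr3 -0.52, Pdgfb -0.29 and Kitl 0.68. After quantile normalization the differences that changed sign were Lama1 -0.0097 and Fgfr3 -0.29. Of the compartment calls in the report, leaving out single libraries ended those of Boc in 14 of 24 cases (adjusted p up to 0.082), Pdgfa in 11 of 24 cases (adjusted p up to 0.072) and Synm in 4 of 24 cases (adjusted p up to 0.059), each within reach of the threshold. It gave a compartment call to Rab17 without CD146 control 2 (adjusted p = 0.018), to Itgb8 without CD140a Trap 2 (0.013), to Pcdh7 without CD146 control 1 or Trap 2 and to Mcm3 without either CD146 control, and in 5 cases to Acvr2b, 2 cases to Aurkb, 3 cases to Itgb7, 8 cases to Mcm6, 4 cases to Meis1 and 6 cases to Wnt2.

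Depth limits genes at low level: 1 FPKM stands for an estimated 58.0 to 85.8 fragments at the median length, so the differences of genes near or under 1 FPKM, such as Lama1, Flt4 and Rab17, carry the most counting error. No count test was run, because only FPKM were used here. With 2 populations per side, the spread between populations of a compartment is not estimated beyond those 2.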
